A study of Mus musculus with 16 samples.

Results

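The transcripts described here are those of the 26S proteasome, the protease that degrades ubiquitin-tagged proteins. Members were the rows of the gene tables whose symbol was Psma, Psmb, Psmc or Psmd followed by a digit, which gave 40 genes among 24354 rows. The authors tested 37 of the 40 between genotypes in both conditions. Psma8, Psmb9 and Psmb11 were not tested. RNA was sequenced from quadriceps, a thigh muscle, of male C57BL/6 mice aged 4 months. Mice of the control groups were wild type, and the others were HDAC3 knockouts. HDAC3 is a histone deacetylase of the NCoR and SMRT corepressor complexes. All mice ate normal chow. The rested groups did not run, and the running groups completed 3 treadmill sessions of 1 h each at 10 m/min, separated by pauses of 1 h, with muscle collected 2 h after the last. Each of the 4 groups held 3 libraries. The labels did not say what drove the deletion, in which cells it took place, or whether the libraries came from separate animals, so p-values measure the spread between these libraries, which may be technical.

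The proteasome consists of a barrel-shaped core particle and a regulatory particle that caps it. In the core, rings of alpha subunits (Psma genes) form the gate, and rings of beta subunits (Psmb genes) hold the proteolytic sites. In the regulatory particle, a ring of ATPases (Psmc genes) unfolds substrates, and non-ATPase subunits (Psmd genes) bind ubiquitin, remove it and hold the particle together. In muscle this system carries much of the breakdown of contractile proteins, and its subunit genes are known to rise together during atrophy. The rule also took 4 genes that are not subunits. Psmd5, Psmd9 and Psmd10 are chaperones that help to assemble the regulatory particle, and Psmc3ip is a meiotic recombination factor named after its binding to Psmc3. The counts over subunits below leave these 4 out. Of the 33 tested subunits, 31 are constitutive (14 of the core and 17 of the regulatory particle) and Psmb8 and Psmb10 belong to the immunoproteasome.

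Values were FPKM, a measure of abundance per transcript length and per sequenced fragment. Since the depth of the libraries was unknown, the spread over the 3 libraries of a group was the error available. Values with ± are means and SDs (n = 3). Over the whole series, the FPKM of a library added up to 454359 at the lowest and 522966 at the highest. Hdac3, the targeted gene, lay between 23.7 and 33.3 FPKM in wild type (6 libraries) and between 4.13 and 8.16 FPKM in knockout (6 libraries). The muscle marker Tnnt3 was at 14624 FPKM or more in every library. In bulk tissue, fewer cells of a type and less RNA per cell cannot be told apart. A gene is said to have risen or fallen where the q in the authors' deposited table and the Benjamini-Hochberg adjusted p of limma on log2(FPKM + 1) were both at or under 0.05 in the same direction. log2 differences are limma's, knockout minus wild type, on the log2(FPKM + 1) scale.

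Promoter sequence was read from RefSeq windows (GRCm38.p6) that run from 250 bases before to 50 bases after a start site, and 33 of the 40 genes had such a window. Mammalian subunit genes are known to be induced by Nfe2l1 through antioxidant response elements, so the core of that element was searched: TGAC, any 3 bases, then GC, on either strand. It was found in 5 of the 35 windows of the members (14.3%), against 12.4% of all 32851 windows. The search also covered the CCAAT box, on either strand, which stood in 14 of the 35 windows (40.0%) and in 37.4% of all windows. The members' shares were thus near those of all windows. The stretches that hold the response element core are shown for all 5 genes with a match. These are the catalytic subunits Psmb5 and Psmb6, and Psmc6, Psmd12 and Psmd9. Capitals mark the match, each line reads 5′ to 3′ on the strand of the gene, and every stretch lies upstream of the start.
Psmb5, chr14:54618014-54618062, minus strand: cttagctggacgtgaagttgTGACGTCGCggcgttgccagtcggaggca
Psmb6, chr11:70525328-70525356, plus strand: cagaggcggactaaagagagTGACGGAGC
Psmc6, chr14:45329577-45329625, plus strand: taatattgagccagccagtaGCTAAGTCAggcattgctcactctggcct
Psmd12, chr11:107479278-107479309, plus strand: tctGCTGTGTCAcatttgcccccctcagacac
Psmd9, chr5:123228139-123228187, plus strand: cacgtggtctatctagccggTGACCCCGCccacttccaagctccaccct

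Psma6 was the member that passed both tests between genotypes, and it had windows at 2 start sites. The 150 bases before each are shown, with CCAAT boxes (CCAAT or its complement ATTGG) in capitals. The first holds the box on both strands and the other holds none. Which start the muscle libraries used was not determined from gene-level FPKM.
Psma6, first start, chr12:55384072-55384221, plus strand: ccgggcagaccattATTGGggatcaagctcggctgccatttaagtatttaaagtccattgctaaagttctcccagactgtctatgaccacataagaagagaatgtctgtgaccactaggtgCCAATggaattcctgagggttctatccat
Psma6, other start, chr12:55398675-55398824, plus strand: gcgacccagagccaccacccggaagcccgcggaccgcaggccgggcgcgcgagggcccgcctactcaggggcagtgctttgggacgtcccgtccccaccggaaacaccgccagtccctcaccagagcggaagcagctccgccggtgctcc

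The constitutive subunits were abundant but not equal in level. In resting wild-type muscle their median was 85.5 FPKM, against 8.16 FPKM over all genes tested in both tables. The core median was 101 FPKM and the regulatory median 62.4 FPKM. By ring, the medians were 93.7 FPKM for alpha, 106 FPKM for beta, 76.2 FPKM for the ATPases and 51.2 FPKM for the non-ATPase subunits. Psmb7, the beta subunit with trypsin-like activity, stood highest in resting wild type, at 309, 276 and 262 FPKM, above 97.6% of the tested genes. The next were Psmd8, a lid subunit, at 142 ± 12 FPKM and Psmd6, another lid subunit, at 140 ± 9.64 FPKM, which did not differ beyond their spread. The lowest constitutive subunits were Psmd3, at 18.2, 14.6 and 24.1 FPKM, Psmd11, at 30.3, 31.7 and 25.3 FPKM, and Psmd7, the partner of the deubiquitinase Psmd14, at 36.2, 31.0 and 28.7 FPKM. The ranges of Psmd11 and Psmd7 overlapped. Over all 33 tested subunits, Psmb10 and Psmb8 of the immunoproteasome lay lower still, at 3.60 and 4.08 FPKM on average. Psmb7 was the highest and Psmd3 the lowest constitutive subunit in each of the 12 libraries, and their ratio lay between 8.46 and 22.6. Reads of Psma5, Psmb5, Psmb6 and Psmb7 are uncertain to the extent that pseudogenes named after them share sequence, since the sources used here do not give the treatment of multiply mapped reads.

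**Figure D1:**
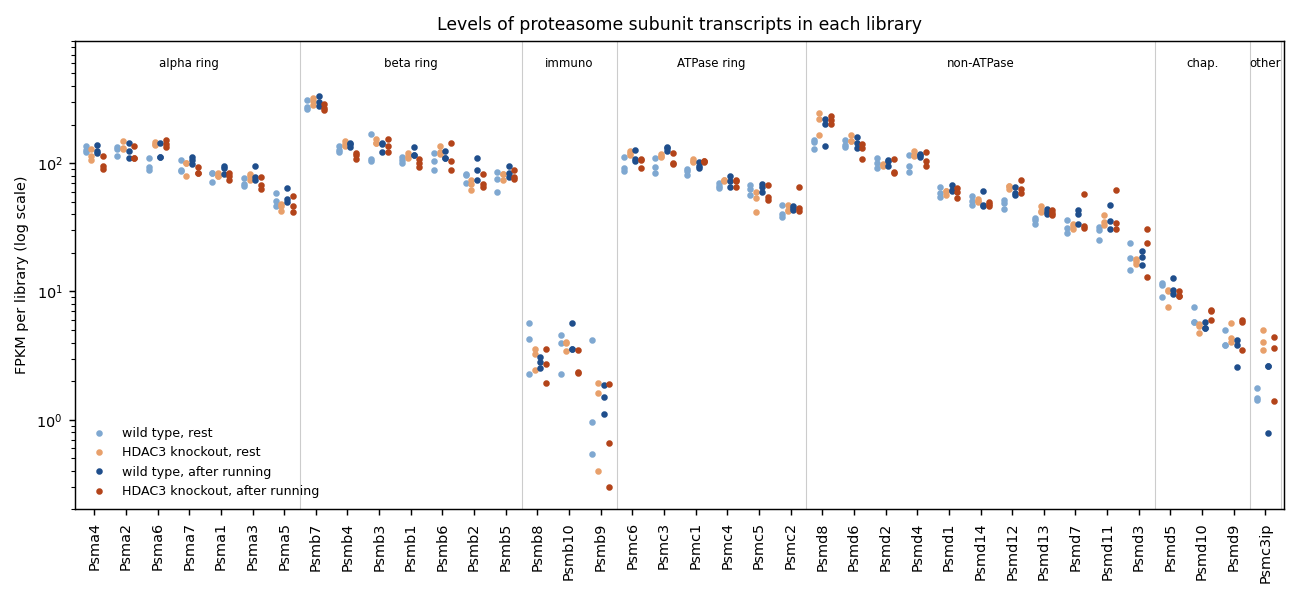
FPKM of each member in each of the 12 libraries on a log axis, ordered within the rings by the resting wild-type mean, with colours for the 4 groups (Psma8 and Psmb11, under 1 FPKM, are left out). Constitutive subunits lie between 12.9 and 331 FPKM, and the immunoproteasome subunits Psmb8, Psmb9 and Psmb10 between 0.298 and 5.71 FPKM.

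The order of the subunits was alike across libraries. Over the 31 constitutive subunits the Pearson correlation of log2(FPKM + 1) between pairs of libraries lay between 0.852 and 0.991 (median 0.966, 66 pairs, across genes, which are not independent replicates). Running knockout library 1 stood apart. Its median correlation with the other libraries was 0.910, against 0.949 to 0.975 for the rest. It held Psmd11 at 62.2 FPKM, where the other running knockout libraries had 34.3 and 30.4 FPKM, and Psmd7 at 58.0 FPKM, where they had 32.6 and 31.2 FPKM. These 2 genes were picked after their values were seen. Several results after running are given with and without this library. The spread among replicates of constitutive subunits, as a median coefficient of variation, was 9.0% in resting wild type, 4.72% in resting knockout, 8.74% in running wild type and 11.6% in running knockout. The same medians over all genes were 13.2%, 12.1%, 12.9% and 14.4%.

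The resting comparison asked how subunit transcripts differed between the genotypes in mice that had not run. Of the 37 tested members, 1 rose in the knockout, Psma6, and 0 fell, where both tests called 4.27% of all 9204 tested genes, 2.74% higher and 1.53% lower. Psma6, an alpha ring subunit, measured 111, 93.0 and 87.8 FPKM in wild type and 147, 139 and 140 FPKM in knockout. The knockout libraries all lay above the wild-type ones. The mean of Psma6 rose from 97.1 ± 11.9 FPKM in wild type to 142 ± 4.36 FPKM in knockout, a log2 difference of 0.55 (SE 0.11, limma adjusted p = 0.0379, authors' q = 0.00729). It kept its call without wild-type library 1 and lost it when any of the other 5 resting libraries was left out (limma adjusted p from 0.0745 to 0.154).

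Psmd8 and Psmd12, both in the lid of the regulatory particle, passed only in the authors' deposited table, which called 10.8% of all tested genes at rest, 5.9% as higher in knockout. Psmd8 measured 129, 152 and 146 FPKM in wild type and 248, 164 and 219 FPKM in knockout. Knockout library 2 lay close to the wild-type range and the others well above it. The Psmd8 log2 difference was 0.54 (SE 0.16, limma adjusted p = 0.108, authors' q = 0.00119), and without knockout library 2 it was 0.71 (limma adjusted p = 0.0494). Over the fits with 1 library left out it lay between 0.42 and 0.71, with limma adjusted p from 0.0494 to 0.274. Psmd12 measured 51.6, 43.7 and 49.0 FPKM in wild type and 63.3, 66.8 and 66.5 FPKM in knockout. Its groups were separate, with a log2 difference of 0.44 (SE 0.099, limma adjusted p = 0.0516, authors' q = 0.0462).

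Psmc3ip, the recombination factor, passed limma alone, which called 4.72% of all tested genes at rest. It measured 1.47, 1.76 and 1.44 FPKM in wild type and 3.49, 5.04 and 4.04 FPKM in knockout. The log2 difference was 1.01 (SE 0.16, limma adjusted p = 0.0187, authors' q = 0.195). Psmc3ip overlaps Mlx in the reference annotation, to an extent that was not determined. The sources used here do not say whether strand was used in counting, so reads from the stretch that the 2 genes share cannot be told apart. Psmc3ip missed the limma threshold when wild-type library 2 (adjusted p = 0.0754), knockout library 2 (0.0522) or library 3 of the knockout (0.0716) was left out. The fifth of the largest resting differences among members was that of the ATPase Psmc6, at 112, 91.0 and 86.6 FPKM in wild type and 120, 117 and 124 FPKM in knockout (log2 difference 0.32, SE 0.12, limma adjusted p = 0.177).

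Most other resting differences were small and of mixed direction. Of the 37 tested members 26 had a positive difference (20 with quantile-normalized libraries), against 51.7% of all genes, and 8 (21.6%) had an unadjusted limma p under 0.05, against 21.5% of all genes. The 2 shares were alike with all 6 libraries. Without knockout library 1 the members' count was 4, against 18.1% of all genes. Over the fits with 1 library left out it lay between 4 and 10, against 15.4% to 21.6% of all genes. Fitted to all 24354 rows it was 9, against 10.6% of them. That share takes in the rows that the authors did not test, which the 21.5% leaves out. The median log2 difference over the 33 tested subunits was 0.12, with 24 higher and 9 lower, against 0.011 over all genes. With quantile-normalized libraries the median was 0.022, with 18 higher and 15 lower, so the direction of the subunits as a group rests on the scaling. The knockout libraries lay wholly above the wild-type ones for 11 of 37 members, Psma6, Psmb4, Psmc1, Psmc3, Psmc3ip, Psmc4, Psmc6, Psmd8, Psmd11, Psmd12 and Psmd13, where 15.6% of all genes did so. They lay wholly below for 1 member, Psmd10, against 12.4% of all genes. In the core, 2 of 14 constitutive subunits were separated upward, and in the regulatory particle 8 of 17. The ATPases Psmc1 and Psmc4 were among the latter, at 85.5 ± 4.76 against 104 ± 2.75 FPKM (limma adjusted p = 0.131) and at 66.8 ± 3.30 against 73.3 ± 0.512 FPKM (limma adjusted p = 0.432). The ATPase Psmc5 leaned the other way, at 62.4 ± 5.06 against 51.9 ± 9.22 FPKM (limma adjusted p = 0.335).

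**Figure D2:**
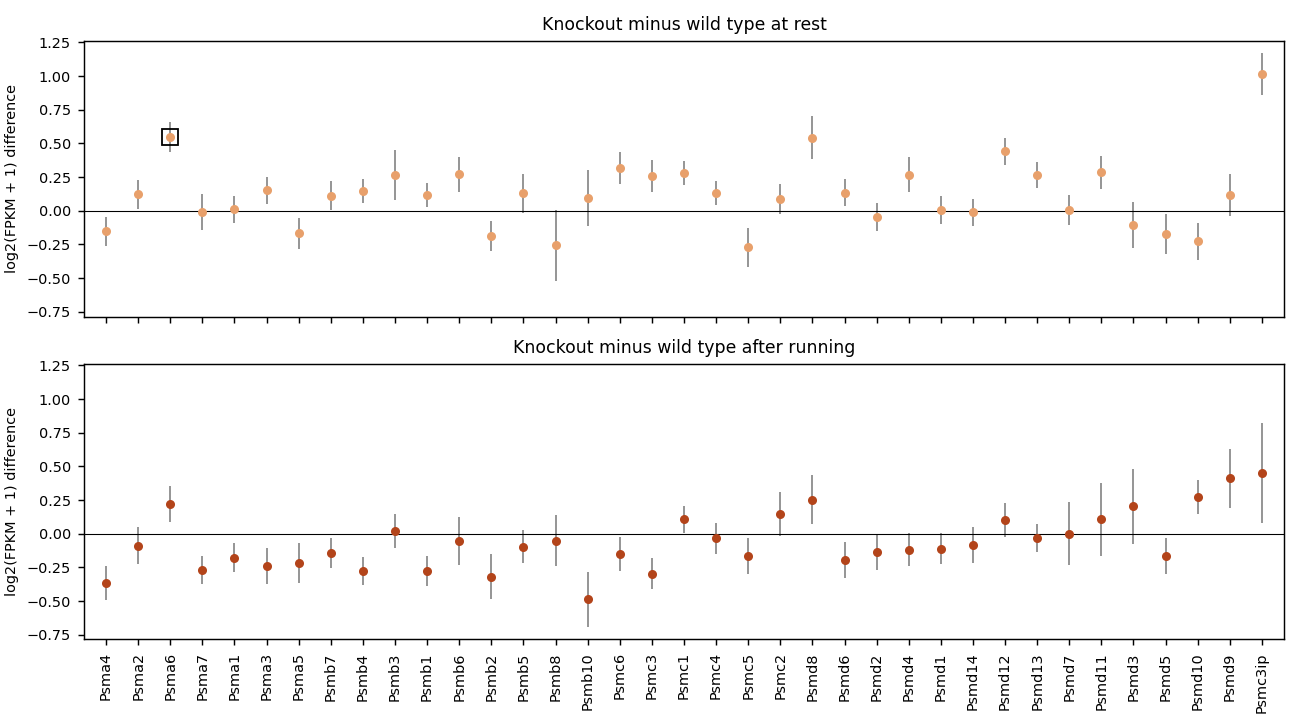
limma log2(FPKM + 1) differences, knockout minus wild type, of the 37 tested members at rest (upper panel) and after running (lower panel), with bars of 1 SE and a square around the member that passed both tests. Psma6 at rest, at 0.55, carries the square, and the core subunits sit mostly above 0 at rest (10 of 14, and 7 of 14 with quantile-normalized libraries) and below 0 after running (12 of 14 either way).

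The running comparison asked how the genotypes differed 2 h after treadmill exercise. Of the 37 tested members 0 passed limma or the authors' test (6 had an unadjusted limma p under 0.05), where both tests called 3.43% of 9037 tested genes (1.39% higher and 2.04% lower), limma alone 3.73% and the authors' q alone 9.57% (4.66% higher). The 6 members were Psma4, Psma7, Psmb1, Psmb4, Psmb10 and Psmc3, all with lower means in knockout, and they were 16.2% of the 37, against 19.9% of all genes. The count was 3 of 37 without knockout library 1, against 17.4% of all genes. Over the 6 fits with 1 library left out it was 2 to 6, against 15.4% to 18.7% of all genes. It was 2 without knockout library 2 or wild-type library 2, and 3 without wild-type library 1 or 3. In the 6 members named above the knockout libraries lay wholly below the wild-type ones, where 13.7% of all genes did so. Psmd10 lay wholly above, against 12.4% of all genes. Psma6, at 111, 112 and 144 FPKM in wild type and 140, 151 and 134 FPKM in knockout, overlapped between the genotypes (log2 difference 0.22, SE 0.13, limma adjusted p = 0.39).

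By size, the members furthest from 0 after running were Psmb10, Psmc3ip, Psmd9, Psma4 and Psmb2. Psmb10, an immunoproteasome subunit, measured 3.54, 5.66 and 3.55 FPKM in wild type and 2.34, 2.33 and 3.5 FPKM in knockout (log2 difference -0.49, SE 0.21, limma adjusted p = 0.24). The alpha subunit Psma4 measured 125, 120 and 139 FPKM in wild type and 89.6, 114 and 94.2 FPKM in knockout (log2 difference -0.37, SE 0.13, limma adjusted p = 0.168). The gap between its nearest libraries was smaller than the SD in knockout. The beta subunit Psmb2 had a log2 difference of -0.32 (SE 0.17, limma adjusted p = 0.329), the chaperone Psmd9 one of 0.41 (SE 0.22, limma adjusted p = 0.341) and Psmc3ip one of 0.45 (SE 0.37, limma adjusted p = 0.542). The groups overlapped for all 3. These values moved when 1 library was left out, from -0.63 to -0.30 for Psmb10, -0.45 to -0.17 for Psmb2, 0.25 to 0.61 for Psmd9 and 0.11 to 0.80 for Psmc3ip. Without knockout library 1 they were -0.42 for Psmb10, 0.61 for Psmd9 and 0.80 for Psmc3ip.

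As a group the subunits leaned lower in the running knockout. Means were lower for 25 of the 37 tested members and for 24 of the 33 subunits, with a median log2 difference of -0.11 against -0.00074 over all genes, of which 49.9% were higher in knockout. The core median was -0.20, with 12 of 14 subunits lower, and the regulatory median was -0.035, with 10 of 17 lower. The difference between the particles was not tested. Of 6 skeletal muscle markers, 5 also had lower means in the running knockout (median log2 difference -0.17, 0 passing both tests). Ckm, whose libraries overlapped, had a difference of -0.54 (limma adjusted p = 0.302). Tnnt3, whose libraries were separated, had one of -0.31 (limma adjusted p = 0.197). Those of Acta1 (-0.25), Tnnc2 (-0.10) and Myh4 (-0.032) were smaller, and Myh1 had a positive one of 0.30. The part of muscle content in the lean of the subunits was not tested. Without running knockout library 1 the core median was -0.19, with 11 of 14 lower, and the regulatory median -0.083, with 13 of 17 lower. Without wild-type library 3 the regulatory median was 0.033 and the core median -0.13.

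Per library, the medians show how far replicates of a group lay from each other. Taken against the mean of wild type, the median over 33 subunits at rest was 0.074, -0.075 and 0.014 in wild type and 0.19, 0.070 and 0.099 in knockout, so the groups met at the edge. After running it was -0.039, -0.070 and 0.097 in wild type and -0.14, -0.12 and -0.12 in knockout, and the groups did not overlap. Running knockout library 1 had the lowest core median, -0.27, and a regulatory median of 0.066, above the other knockout libraries. The medians of all tested genes stayed within 0.021 of 0 in all 12 libraries.

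**Figure D3:**
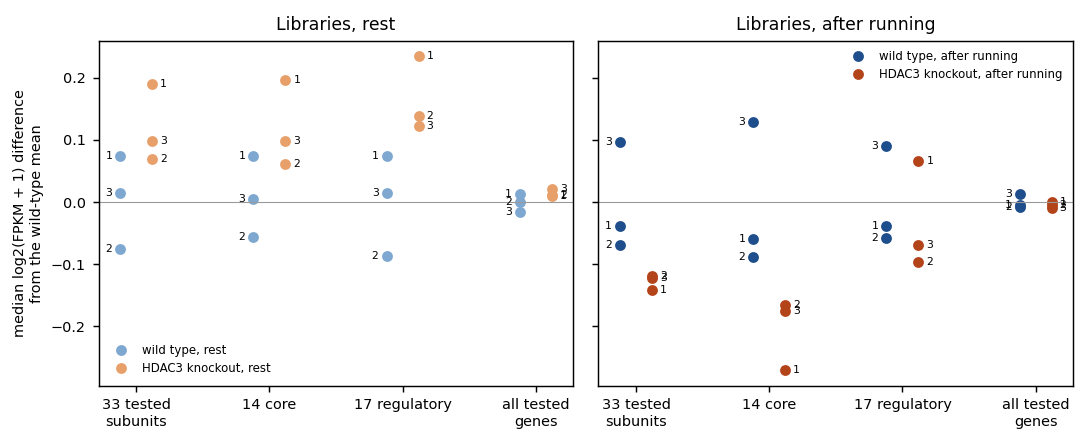
Median log2(FPKM + 1) difference of each library from the wild-type mean of its own condition, for the 33 tested subunits, the 14 core and 17 regulatory constitutive subunits and all tested genes, with replicate numbers beside the points. The 3 running knockout libraries sit between -0.14 and -0.12 for the 33 subunits, below the wild-type libraries, and library 1 differs in sign between core and regulatory subunits.

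The difference of the genotype effect between the conditions was tested by an interaction contrast in limma over the 12 libraries. It called 0 of the 37 members and 0% of the 8854 genes tested in both tables, and every member had an adjusted p of at least 0.923. At an unadjusted p under 0.05 it gave 9 members (24.3%), against 4.89% of all genes. Of these, 8 had a lower knockout effect after running, against 2.78% of all genes. They were Psmb4 (-0.42, SE 0.12), Psmc3 (-0.56, SE 0.16), Psmb1 (-0.39, SE 0.13), Psmc6 (-0.47, SE 0.17), Psma3, Psmd4, Psmd12 and Psmd13. The ninth, Psmd10, had a higher one (0.50, SE 0.17). The contrast was below 0 for 29 of 33 subunits, with a median of -0.23, against 55.7% and a median of -0.036 for all genes. With quantile-normalized libraries the median was -0.087, and 2 of 37 members had an unadjusted p under 0.05, against 3.81% of all genes. The number of small p-values thus rests on the scaling. The count was 7 of 37 without running knockout library 1, against 4.34% of all genes. It was 5 of 37 without resting wild-type library 2, resting knockout library 1 or running wild-type library 3. Over all 12 fits with 1 library left out it lay between 5 and 11, against 3.61% to 6.93% of all genes. Subunits of a complex are not independent of each other, and none of these values passed the adjustment. By size the members furthest from 0 were Psmb10 (-0.58, SE 0.31), Psmc3ip (-0.56, SE 0.45) and Psmc3.

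Library values of 3 of these genes separated the genotypes in both conditions, in opposite directions. The share of all genes that did so was not counted, so the 3 cannot be set against a background. Psmb4, a beta subunit without a proteolytic site, measured 126, 123 and 135 FPKM in resting wild type and 149, 140 and 137 FPKM in resting knockout. After running it measured 140, 144 and 135 FPKM in wild type and 108, 117 and 120 FPKM in knockout. Psmb4 thus had its lowest values in the running knockout, and with quantile-normalized libraries its resting difference was 0.0074 and its contrast -0.25. Psmc3, an ATPase, measured 83.6, 93.9 and 110 FPKM in resting wild type, 113, 118 and 111 FPKM in resting knockout, 131, 125 and 134 FPKM in running wild type and 98.0, 100 and 120 FPKM in running knockout. Its highest group was running wild type. Psmd10, the assembly chaperone also known as gankyrin, measured 5.76, 5.77 and 7.52 FPKM in resting wild type and 5.62, 5.38 and 4.74 FPKM in resting knockout. It measured 5.22, 5.78 and 5.15 FPKM in running wild type and 7.07, 7.12 and 5.95 FPKM in running knockout. The gaps between the groups of Psmd10 were narrow in both conditions, and Psmd10 overlaps Atg4a in the reference annotation.

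**Figure D4:**
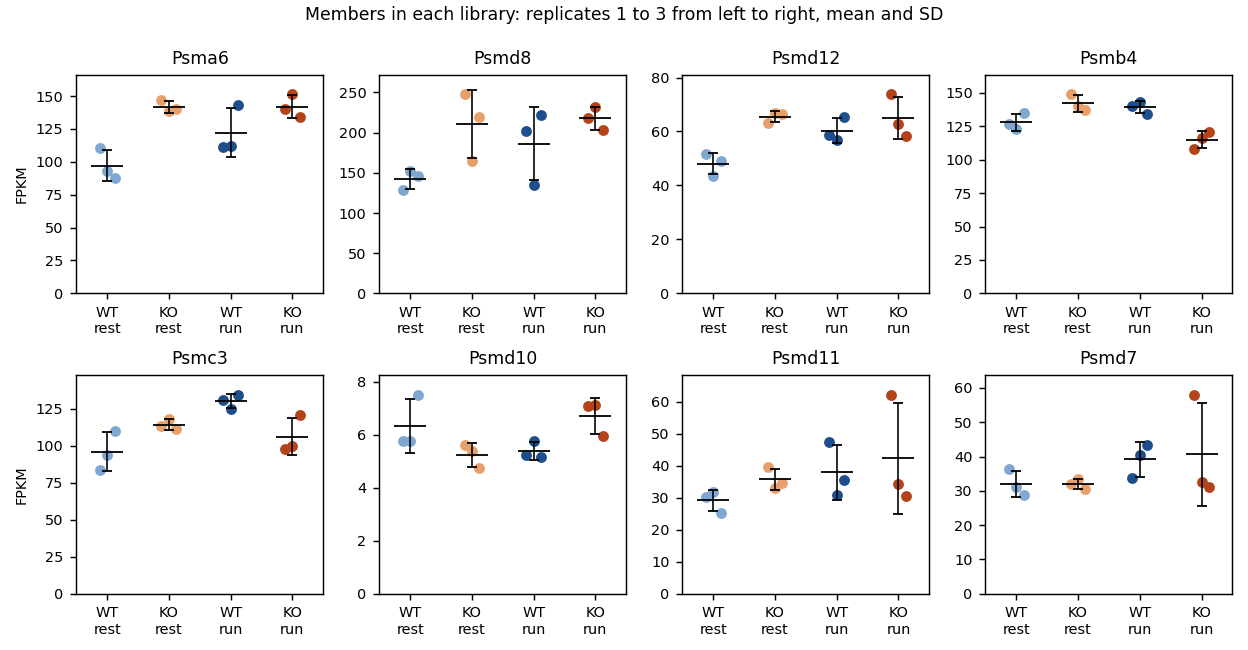
FPKM per library of Psma6, Psmd8, Psmd12, Psmb4, Psmc3, Psmd10, Psmd11 and Psmd7, with the mean and SD of each group as black bars (n = 3, WT wild type, KO knockout, run after running). Psma6 is separated at rest, Psmb4 and Psmc3 change order between the conditions, and the first running knockout library stands at 62.2 FPKM for Psmd11 and 58.0 FPKM for Psmd7.

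Rested and running libraries stood in separate tables, and the sources used here do not say whether they were normalized together, so running against rest is given as values with no test. In wild type 29 of the 31 constitutive subunits had higher means after running, with a median log2 ratio of 0.16 against -0.0015 over all genes. Psmc3 had the largest value, 95.8 ± 13.2 FPKM at rest and 130 ± 4.73 FPKM after running, followed by Psmd8 at 142 ± 12 and 186 ± 45.5 FPKM. Psma4 and Psmd3 were the exceptions. In knockout 22 of 31 were lower after running, with a median of -0.070 against -0.024 over all genes. Psmb4 had the lowest value there, 142 ± 6.05 FPKM at rest and 115 ± 6.41 FPKM after running. Psmd3, Psmd7 and Psmd11 were higher in the running knockout, and running knockout library 1 held their highest values. These ratios use the same 4 group means as the genotype differences above and are no separate evidence.

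**Figure D5:**
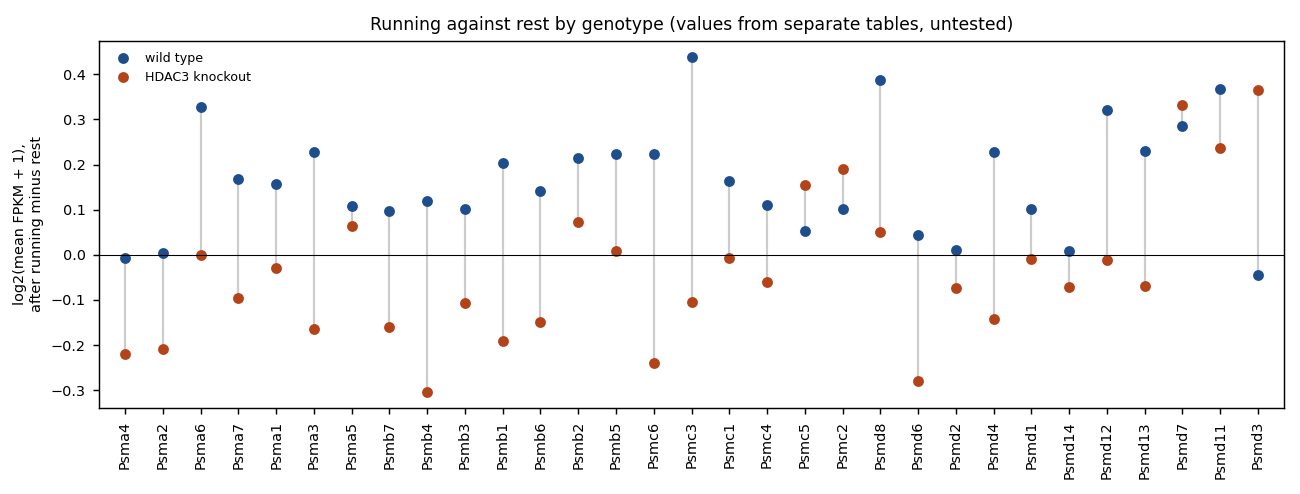
log2 of mean FPKM + 1 after running minus rest for the 31 constitutive subunits, in wild type and in knockout, with a grey line joining the genotypes. The wild-type points lie above 0 for 29 of 31 subunits and the knockout points below 0 for 22 of 31, from separate tables.

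The 3 catalytic subunits did not pass a test in either condition. Psmb5, with chymotrypsin-like activity, measured 73.5 ± 13.3 against 79.7 ± 4.59 FPKM at rest and 85.9 ± 8.79 against 80.2 ± 6.82 FPKM after running (limma adjusted p = 0.654 and 0.705). Psmb6, with caspase-like activity, measured 104 ± 15.7 against 125 ± 9.57 FPKM at rest and 115 ± 7.66 against 113 ± 28.7 FPKM after running (limma adjusted p = 0.289 and 0.892). Psmb7 measured 282 ± 23.8 against 305 ± 19.0 FPKM at rest and 302 ± 27.3 against 273 ± 16.3 FPKM after running (limma adjusted p = 0.587 and 0.523). For all 3 the log2 difference was positive at rest and negative after running, with sizes of up to 0.27. The signs of Psmb5 at rest and Psmb6 after running turned when 1 library was left out.

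The immunoproteasome subunits Psmb8, Psmb9 and Psmb10, which replace Psmb5, Psmb6 and Psmb7 under interferon and in immune cells, were low throughout. Psmb8 measured 4.25, 2.27 and 5.71 FPKM in resting wild type and 3.58, 2.46 and 3.27 FPKM in resting knockout. After running Psmb8 measured 2.83, 2.52 and 3.06 FPKM in wild type and 1.92, 3.55 and 2.70 FPKM in knockout. The groups overlapped in both conditions (limma adjusted p = 0.626 and 0.903). Psmb9 lay between 0.398 and 4.21 FPKM at rest and between 0.298 and 1.89 FPKM after running, and Psmb10 at rest measured 3.60 ± 1.2 against 3.8 ± 0.336 FPKM (limma adjusted p = 0.835). The 3 together made up between 1.06% and 3.00% of the summed FPKM of both sets of catalytic genes. The highest share was in resting wild-type library 3 and the lowest in running knockout library 1. Of the 10 measured genes of interferon response and class I presentation, 5 were tested and 0 passed both tests in either condition. The share of all tested genes past both tests was 4.27% at rest and 3.43% after running. The summed FPKM of 12 immune cell markers ranged from 93.3 to 547 in resting wild type, 60.2 to 105 in resting knockout, 48.3 to 65.5 in running wild type and 80.4 to 426 in running knockout. The T cell marker Cd3e was at 0 in every running library and at most 0.255 FPKM at rest. With S100a8 and S100a9 left out, which made up most of the sum in resting wild-type library 2 and running knockout library 3, the other 10 markers summed to between 85.1 and 88.4 FPKM in resting wild type, 56.8 and 98.0 FPKM in resting knockout, 35.7 and 63.5 FPKM in running wild type and 78.3 and 122 FPKM in running knockout. After running all 6 tested immune markers had a positive difference (median log2 difference 1.19). These 6 include S100a8 (1.53) and S100a9 (1.92), whose high knockout values lay in library 3 alone. The others were Cd68 (1.48), Lyz2 (0.91), Cd74 (0.78) and Laptm5 (0.74). For 7 of the 12 markers the running knockout libraries lay wholly above the wild-type ones. Of these, Cd68, Cd74, Lyz2 and Laptm5 were tested, and Ptprc, Itgam and Adgre1 were not. Of all tested genes 12.4% lay wholly above in this way after running. At rest 0 of the 12 did so, and 6 of 7 tested markers had a negative difference (median -0.43). The macrophage gene Cd68 was the 1 marker that rose by both tests after running, where both tests called 1.39% of all tested genes higher. It stood at 4.26 ± 1.45 FPKM in running knockout against 0.888 ± 0.545 FPKM in running wild type (limma adjusted p = 0.0372). The part of immune cells in the values of Psmb8, Psmb9 and Psmb10 was not tested.

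Psma8, a testis subunit, and Psmb11, a thymus subunit, were under 1 FPKM in all 4 group means. Psma8 reached at most 0.395 FPKM, and Psmb11 at most 0.0947 FPKM. The chaperones were also well below the subunits that they help to assemble. In resting wild type Psmd5 measured 10.6 ± 1.40, Psmd9 4.21 ± 0.659 and Psmd10 6.35 ± 1.01 FPKM, and none of the 3 passed a test.

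Genes that work with the proteasome gave 1 call. Among 14 measured partners and subunits outside the prefix rule, 0 rose and 1 fell at rest. Of all tested genes, both tests called 2.74% higher and 1.53% lower at rest. Ubqln4, which carries ubiquitin-tagged proteins to the proteasome, measured 28.9, 29.3 and 29.6 FPKM in resting wild type and 16.1, 16.7 and 18.8 FPKM in resting knockout. The groups were far apart relative to their spread, and the mean of Ubqln4 fell from 29.2 ± 0.347 FPKM in wild type to 17.2 ± 1.44 FPKM in knockout (log2 difference -0.74, SE 0.098, limma adjusted p = 0.0149, authors' q = 0.00119). After running Ubqln4 measured 28.0, 29.1 and 28.2 FPKM in wild type and 23.0, 16.6 and 18.1 FPKM in knockout (log2 difference -0.55, SE 0.14, limma adjusted p = 0.0742, authors' q = 0.0133). No member of the other lists passed both tests in either condition: the 5 proteasome activators and inhibitor, 5 assembly chaperones, 6 genes of subunit transcription, 6 ubiquitin and E1 genes and 6 genes of extraction by the ATPase Vcp. The share of all tested genes past both tests was 4.27% at rest and 3.43% after running. Nfe2l1, the transcription factor known to induce subunit genes, measured 116 ± 6.74 against 127 ± 13.5 FPKM at rest and 126 ± 7.23 against 136 ± 31.8 FPKM after running (limma adjusted p = 0.553 and 0.815). Psmg4, an assembly chaperone of the alpha ring named here after its values were seen, measured 9.39 ± 0.330 against 16.3 ± 2.77 FPKM at rest (limma adjusted p = 0.0285, authors' q = 0.106). After running Psmg4 measured 3.95 ± 1.94 against 10.9 ± 4.37 FPKM, and its libraries overlapped (log2 difference 1.26, SE 0.35, limma adjusted p = 0.102, authors' q = 0.0539).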

How the data were processed

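RNA-seq of 12 libraries (3 per genotype, at rest and after running) was analysed. The 4 GRO-seq libraries were not analysed here. The authors deposited 2 tables, 1 per condition, which hold the FPKM of every library with the p-values and q-values of their own genotype comparison. TopHat2, Bowtie, Cuffdiff, HOMER and mm9 are named, with no versions, in the submitters' processing notes. The sources used here do not give normalization, annotation, strandedness or the treatment of multiply mapped reads. Which table held which condition was taken from the tables' names. A fold column deposited by the authors was not used. Names turned into dates (27, after running) were left out. A deposited p under 1 marked a gene as tested (9204 at rest, 9037 after running, 8854 in both).

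limma 3.58.1 (R 4.3.3) was fitted per table to log2(FPKM + 1) of these genes, with moderated variances, a mean-variance trend and two-sided Benjamini-Hochberg adjustment over all of them, and once over all 12 libraries for the interaction. The fit was tested on simulated data. Depth was unknown, so counting error could not be given. With 3 libraries a group, exact permutation cannot pass 0.05 and was not used. Members and lists were chosen with earlier results of these data known. Genes named were members past both tests, the catalytic and immunoproteasome subunits, the 3 highest and 3 lowest subunits, the 5 largest differences per table, the 3 largest interactions, rows under 1 FPKM, and list genes past both tests with Nfe2l1. Other genes were named after their values were seen (Psmg4, Psmc1, Psmc4, Psmc5, Psmd7, Psmd11, Psmd5 and the marker genes), as were those listed to spell out a count. Alternatives were pseudocounts of 0.1 and 5, other filters and scalings, no variance trend, a replicate block and each library left out.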

Additional observations from a re-analysis of the deposited data

Results flagged for a closer look

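For Psmb4, Psmc3 and Psmd10 the knockout libraries lay wholly on opposite sides of the wild-type libraries at rest and after running. How many of all genes did the same was not counted. Psmb4 was higher in knockout at rest and lower after running, with an interaction contrast of -0.42 on the log2 scale. Psmc3 moved the same way, with a contrast of -0.56, and Psmd10 the opposite way, with a contrast of 0.50. limma gave each an adjusted p of 0.923, so the difference between conditions did not pass its test in any of the 3 genes. With quantile-normalized libraries the contrasts were -0.25 for Psmb4, -0.44 for Psmc3 and 0.47 for Psmd10, and the resting difference of Psmb4 was 0.0074.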

How the results depend on the processing

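At rest 1 member passed both tests, and 0 passed without the filter on tested genes, with quantile normalization, without the variance trend or with the replicate block. The authors' q alone called 3 members and limma alone 2, and leaving out each library gave 0 to 1. The replicate numbers did not pair the libraries (correlations of same-numbered deviations from -0.003 to 0.049 at rest and from -0.329 to 0.026 after running). With the replicate block limma called 52 genes of the whole resting table, against 434, and 170 of the running table, against 337. In that fit 2 of 37 members had an unadjusted p under 0.05 after running, against 6 without the block. Of all genes 16.6% did, against 19.9% without the block. Without the filter the whole-table calls were 98 and 53, and with 1 library left out 20 to 292 and 70 to 103. The interaction called 0 genes, 8 without the filter and 1 without running wild-type library 3. The median log2 difference over 33 subunits moved with quantile normalization to 0.022 at rest, -0.087 after running and -0.087 for the interaction (the interaction alternatives were added after seeing the data). With 1 library left out it lay between 0.084 and 0.15 at rest, between -0.15 and -0.077 after running and between -0.27 and -0.19 for the interaction. Signs turned for Psmb5 (-0.014 to 0.25 over the fits with 1 library left out) and Psmb10 (-0.13 to 0.25) at rest without wild-type library 1, and for Psmb6 (-0.25 to 0.099) and Psmb8 (-0.21 to 0.11) after running without knockout library 1. The causes were not tested. The unknown depth leaves members under 6 FPKM, the immunoproteasome subunits among them, without a counting error.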
